A study of Homo sapiens with 24 samples.

Results

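ZNF746, also known as PARIS, is a KRAB zinc finger protein (KZFP), and its binding sites were taken as the peaks of its ChIP-seq library with a MACS score above 80. The deposited score equals 10 × −log10 of the p-value that the caller gave the peak. Of the 657 peaks in the list, 260 passed this threshold, out of 31717 peaks above 80 in all 21 KZFP libraries of the series. The list ends at a score of 50, and the 397 peaks with scores of 50 to 80 were kept as a second set from the same library. Each library came from HEK293T cells, an established human embryonic kidney line, transduced with 1 HA-tagged KZFP under a doxycycline-inducible promoter, induced with 1 µg/mL doxycycline and precipitated with an antibody against HA. Besides ZNF746, the ChIP-seq libraries were those of ZNF213, ZNF256, ZKSCAN8, ZNF20 and ZNF597, and of a HEK293T control for which the labels give no transduced protein; 15 further KZFPs were mapped by ChIP-exo. There was 1 library per protein and no replicate, so that no difference between libraries could be set against replicate error and none was tested. The peaks show where an overexpressed, tagged protein was recovered, and do not show where the endogenous protein lies.

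KZFPs carry a KRAB domain, which in many members recruits the corepressor KAP1, and an array of zinc fingers that reads DNA, in many cases within transposable elements. ZNF746 has been described as a substrate of the ubiquitin ligase parkin and as a repressor of PPARGC1A, the gene of the mitochondrial biogenesis regulator PGC-1α. Many human promoters lie in CpG islands, stretches rich in G, C and CpG dinucleotides that are mostly free of DNA methylation and include the promoters of both housekeeping and developmental genes.

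The peaks above 80 shared runs of G-rich words of 8 bases interrupted by single A residues, which on the other strand read as C-rich runs interrupted by T. The windows of 120 bases below are shown because they hold the most matches within their peak, and capitals mark every match to the 10 words described further on. They were read from GRCh37 (hg19) on the strand of the nearest protein-coding gene, 5′ to 3′. DENND4B, EFCAB2, PAFAH1B1, HOXB9, PITX1 and ATP2A2 are among the highest-scoring genes, TFAP2A and DNMT3A stand for regulators with lower scores, and WDR46 is a peak with few matches.
DENND4B (chr1:153918534-153918653, minus strand): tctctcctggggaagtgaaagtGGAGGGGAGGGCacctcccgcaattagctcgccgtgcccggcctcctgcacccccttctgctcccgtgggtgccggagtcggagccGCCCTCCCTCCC
EFCAB2 (chr1:245133978-245134097, plus strand): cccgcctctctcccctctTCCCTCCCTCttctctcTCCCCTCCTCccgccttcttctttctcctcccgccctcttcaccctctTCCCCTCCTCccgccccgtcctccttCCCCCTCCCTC
PAFAH1B1 (chr17:2497139-2497258, plus strand): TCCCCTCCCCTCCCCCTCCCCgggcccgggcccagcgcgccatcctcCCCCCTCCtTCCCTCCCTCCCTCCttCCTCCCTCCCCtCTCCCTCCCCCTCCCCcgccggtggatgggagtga
HOXB9 (chr17:46704081-46704200, minus strand): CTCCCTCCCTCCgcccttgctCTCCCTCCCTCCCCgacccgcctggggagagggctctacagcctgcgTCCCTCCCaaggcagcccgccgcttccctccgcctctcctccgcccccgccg
PITX1 (chr5:134369999-134370118, minus strand): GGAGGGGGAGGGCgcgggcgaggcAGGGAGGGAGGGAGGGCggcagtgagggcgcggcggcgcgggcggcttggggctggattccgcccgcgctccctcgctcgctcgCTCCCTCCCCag
ATP2A2 (chr12:110719269-110719388, plus strand): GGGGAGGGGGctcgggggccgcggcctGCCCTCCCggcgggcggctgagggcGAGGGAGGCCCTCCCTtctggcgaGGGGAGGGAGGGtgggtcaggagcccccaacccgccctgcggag
TFAP2A (chr6:10412645-10412764, minus strand): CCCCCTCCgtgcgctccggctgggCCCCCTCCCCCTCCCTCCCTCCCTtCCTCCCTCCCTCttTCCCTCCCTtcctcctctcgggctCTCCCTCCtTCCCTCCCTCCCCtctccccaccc
DNMT3A (chr2:25564784-25564903, minus strand): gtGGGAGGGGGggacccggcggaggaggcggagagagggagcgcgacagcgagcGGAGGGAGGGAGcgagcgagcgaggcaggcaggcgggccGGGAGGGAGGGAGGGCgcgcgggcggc
WDR46 (chr6:33248193-33248312, minus strand): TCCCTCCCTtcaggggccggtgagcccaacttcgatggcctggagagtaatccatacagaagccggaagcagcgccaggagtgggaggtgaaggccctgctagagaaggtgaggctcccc

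The number of matches in these windows was 8 for DENND4B, 11 for EFCAB2, 28 for PAFAH1B1, 13 for HOXB9, 16 for PITX1, 12 for ATP2A2, 29 for TFAP2A, 16 for DNMT3A and 2 for WDR46. The midpoints of these peaks lay in introns at DENND4B, PAFAH1B1, HOXB9, PITX1, DNMT3A and WDR46, in a UTR exon at ATP2A2 and TFAP2A and in a noncoding exon at EFCAB2. All matches shown for PAFAH1B1 and WDR46 lie outside the 300 bp around the midpoint in which words were counted. So do some of those shown for DENND4B and EFCAB2. The counted windows of PAFAH1B1 and WDR46 held 15 and 0 matches. The matches overlap one another, so that a run such as those of TFAP2A counts several times. The windows of EFCAB2, PAFAH1B1, HOXB9 and TFAP2A read C-rich on the strand of the gene, that of DNMT3A read G-rich, and those of DENND4B, PITX1 and ATP2A2 held both.

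ZNF746 peaks lay at gene starts. A transcription start site (TSS) was counted when at least 1 bp of the peak lay within 2500 bp of it, for every transcript of GENCODE release 44 mapped to hg19. On this rule 237 of the 260 peaks had a TSS, 91.2% (95% exact Clopper-Pearson interval 87.0 to 94.3, counting error only), while such windows covered 16.0% of the assembled bases. The midpoint was within 250 bp of a TSS in 171 peaks (65.8%) and within 1000 bp in 229 (88.1%), and 162 peaks (62.3%) spanned one. The median absolute distance was 158 bp, with quartiles of 52.8 and 375 bp. In the peaks with scores of 50 to 80 the median distance was 415 bp, and 263 of 397 (66.2%, 61.4 to 70.9) had a TSS.

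Protein-coding genes made up most of these starts. Of the 237 TSS peaks, 224 had a protein-coding TSS (94.5%, 90.8 to 97.0), and the other 13 had noncoding starts only, 11 of them with a long noncoding RNA (lncRNA). Relative to the nearest protein-coding TSS, midpoints fell evenly on both sides, with 117 of 224 upstream (52.2%, 45.5 to 58.9) and 106 downstream, at a median of −11.5 bp and quartiles of −133 and 170 bp. By annotation, 108 midpoints lay in an intron, 74 in a UTR exon, 20 in a noncoding exon, 3 in a coding exon and 55 outside genes.

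**Figure D1:**
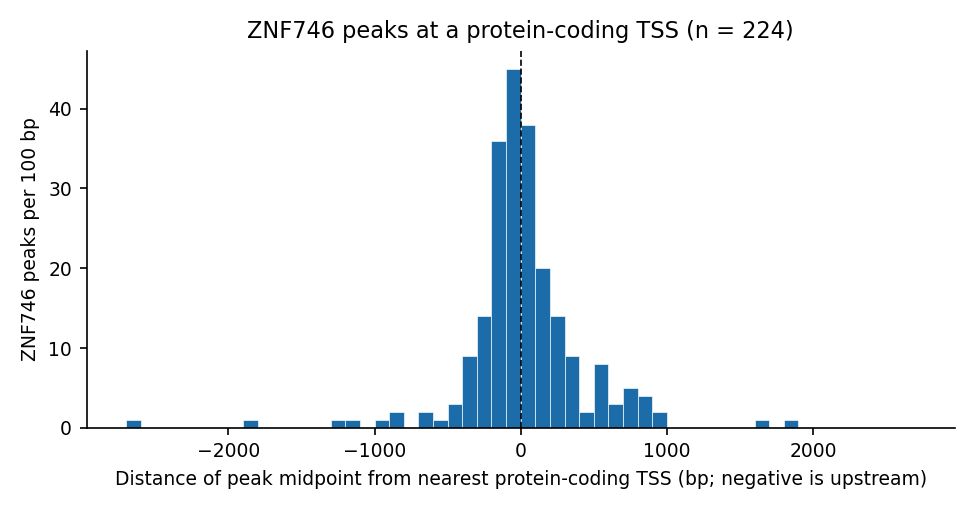
Number of ZNF746 peaks above 80 per 100 bp of distance between the peak midpoint and the nearest protein-coding TSS, for the 224 peaks with such a TSS; negative distances are upstream and the dashed line marks the TSS. The peaks pile up around the start, with 155 of 224 within 250 bp of it and nearly equal numbers on either side.

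A divergent promoter, here a pair of TSS on opposite strands that start away from each other within 1000 bp, was present at 88 of the 237 TSS peaks (37.1%, 31.0 to 43.6). Counted by gene, 121 of the 244 protein-coding genes with a peak had a divergent TSS (49.6%, 43.2 to 56.0), beside 31.8% of all protein-coding genes. RABGAP1L and HIVEP2, each with an annotated divergent transcript, are examples. In the count by gene, a peak in reach of both genes of a divergent pair counts for both. There were 32 peaks with 2 or more protein-coding genes in reach. No share is given for promoters of similar CpG content. The part of either in the difference between 49.6% and 31.8% was not tested. The median score was 119 at divergent and 115 at other TSS peaks, with overlapping quartiles (94.0 to 174 and 97.7 to 153).

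The peaks were rich in G, C and CpG. A window of 500 bp around the midpoint was called CpG-rich when its GC content was above 50% and its observed over expected CpG ratio above 0.6. This held for 224 of 260 peaks (86.2%, 81.3 to 90.1), for 54.9% of the peaks with scores of 50 to 80, and for 67.0% of all protein-coding promoters. Median GC content was 71.8% in the peaks above 80, against 64.6% in all promoters and 69.0% in those promoters that were themselves CpG-rich. Of 13503 CpG-rich promoters, 223 (1.65%) belonged to a gene with a peak, and of 6660 others, 21 (0.315%). Within the 23 peaks away from any TSS, 11 (47.8%, 26.8 to 69.4) were CpG-rich.

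A minority of 36 peaks was not CpG-rich, and some of these sat at starts of protein-coding genes. CHD4, the ATPase of the NuRD remodelling complex, had a peak of score 99.8 with an observed over expected CpG ratio of 0.26, and the start shared by AGPAT1 and RNF5 had one of score 108 with a ratio of 0.3. The WDR46 and B3GALT4 peak shown above (score 219) had a ratio of 0.09 at a GC content of 61.2%. These values are far below the median ratio of 0.82 over the 260 peaks.

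The series' other libraries looked different, although each is a single library and the difference could not be tested. Among those with at least 20 peaks above 80, ZNF546 came nearest, with 17 of 24 peaks at a TSS (70.8%, 48.9 to 87.4) and 18 of 24 in CpG-rich sequence, followed by ZNF763 with 103 of 224 (46.0%, 39.3 to 52.7) and 39.7%. The ZNF213, ZNF256 and ZNF20 libraries were called against the same total input as ZNF746. CpG-rich sequence was found at 1 of 64 deposited ZNF213 peaks, 1 of 55 deposited ZNF256 peaks and 6 of 91 ZNF20 peaks above 80 (6.59%, 2.46 to 13.8). The HEK293T control, called against its own input, had 31 of 163 deposited peaks at a TSS (19.0%, 13.3 to 25.9) and 0 of 163 in CpG-rich sequence, with an upper bound of 2.24%. With all deposited peaks, ZNF746 had 76.1% at a TSS and 67.3% in CpG-rich sequence. On that set ZNF546 had 24.9% and 11.95%, and ZNF763 had 30.3% and 15.4%. The lists hold no read number per library, so that depth and protein cannot be told apart. ZNF546 and ZNF763 were mapped by ChIP-exo with another control, so that assay and protein cannot be told apart there either.

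**Figure D2:**
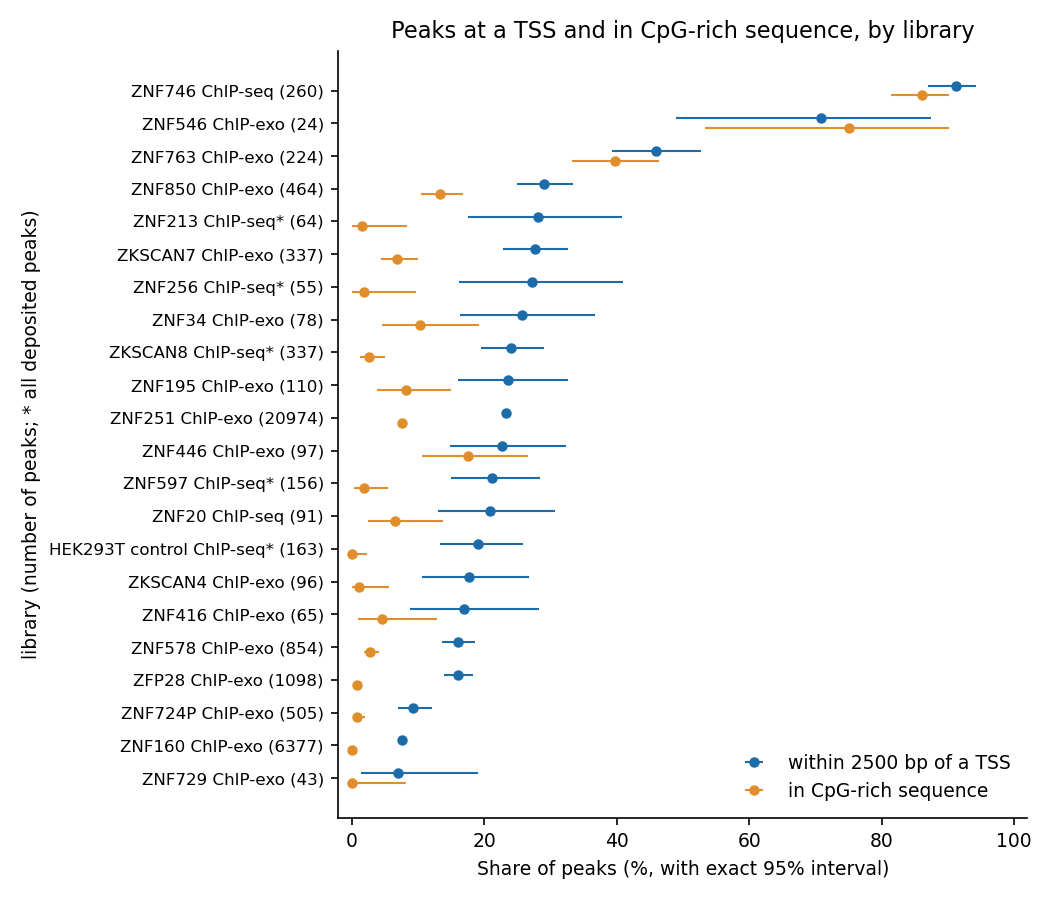
Share of peaks within 2500 bp of a TSS (blue) and in CpG-rich sequence (orange) in each library, with exact 95% intervals that cover counting error only; the number of peaks is in parentheses, and libraries with an asterisk had too few peaks above 80 and are shown with all deposited peaks. ZNF746 has the highest value of both shares, at 91.2% and 86.2% for its peaks above 80 (76.1% and 67.3% with all its deposited peaks, not drawn).

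The strongest peak was at DENND4B, which encodes an exchange factor for Rab GTPases (score 504), followed by EFCAB2, an EF-hand protein (402), and PAFAH1B1, the dynein regulator LIS1 (339). HOXB9 and PITX1, both homeobox transcription factors, had scores of 325 and 322. REV3L, the catalytic subunit of the translesion DNA polymerase zeta, followed at 316, RABGAP1L, a Rab GTPase-activating protein, at 313, and ATP2A2, the calcium pump SERCA2 of the endoplasmic reticulum, at 292. These 8 genes are known from trafficking, the cytoskeleton, transcription, repair and ion transport. The midpoints lay from 349 bp upstream of the protein-coding TSS, at HOXB9, to 505 bp downstream, at DENND4B.

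Below these, the 25 highest peaks included HNRNPU, a nuclear RNA-binding protein (276), PTP4A2, a protein tyrosine phosphatase (233), and HIVEP2, a zinc finger transcription factor (230). ANP32A, an acidic nuclear phosphoprotein that shares its peak with SPESP1, had 228, the scaffold protein AHNAK 226, and AUTS2, a nuclear protein linked to neurodevelopment, 224. ALDOA, the glycolytic aldolase, and TLK1, a kinase of chromatin assembly, had 221 each. Noncoding starts held 3 of the 25, namely ENSG00000224277 (325) and 2 peaks at the lncRNA GASAL1 (322 and 262).

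**Figure D3:**
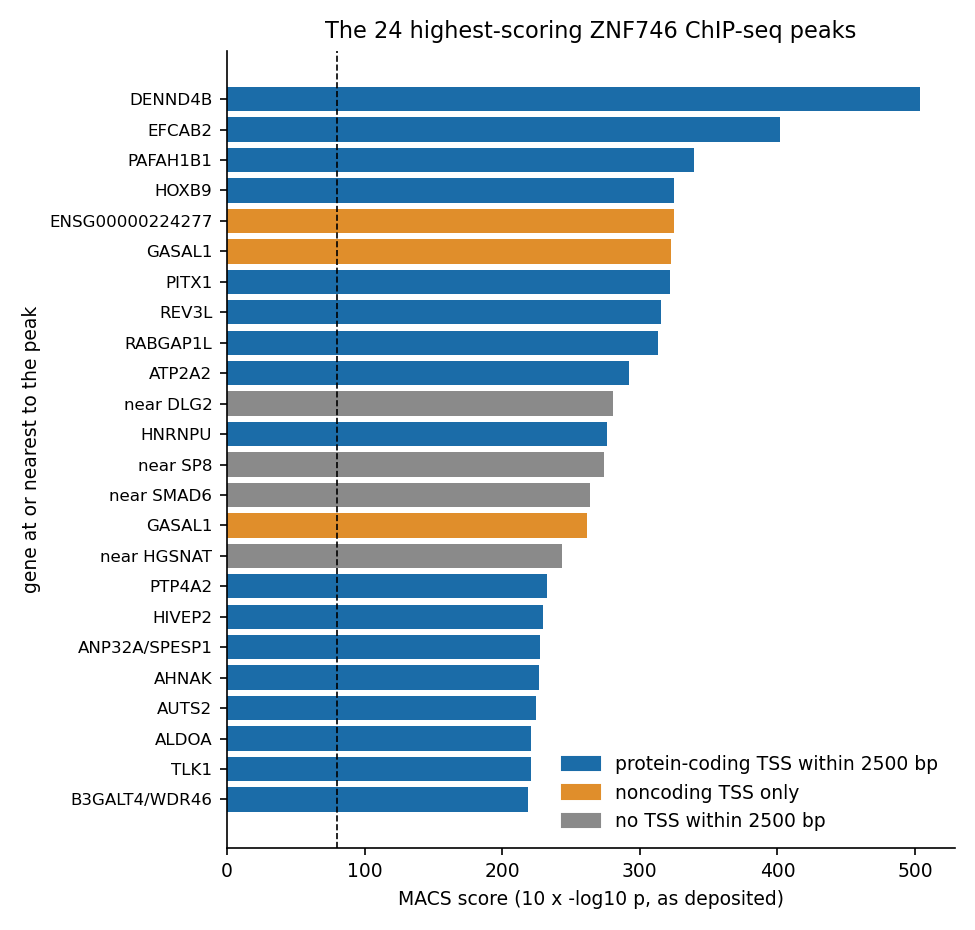
Deposited MACS scores of the 24 highest-scoring ZNF746 peaks, named by the protein-coding gene with a TSS within 2500 bp (blue), by the noncoding gene where only such a TSS was near (orange), or by the nearest protein-coding gene where no TSS was near (grey); the dashed line is the score of 80. DENND4B, at 504, stands above EFCAB2 at 402, and the scores then decline steadily to 219 at the start shared by B3GALT4 and WDR46.

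Scores were spread without a break. The median over the 260 peaks was 114, with quartiles of 94.7 and 160. Just above the threshold lay CDC42BPA (80.04), FIGN (80.34) and a peak near IRF2BP2 (80.45), and just below it a peak near TPTE (79.85), IGDCC3 (79.75) and one shared by HOXD10 and HOXD11 (79.67). Across the 260 peaks of this 1 library the score rose with peak width (Spearman's rho 0.70), while it showed hardly any relation to GC content (0.09), to the number of words (0.03) or to the distance from a TSS (0.0).

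At least 1 peak above 80 lay within 2500 bp of a TSS of 244 of 20163 protein-coding genes, or 1.21%, and any deposited peak at 460, or 2.28%. Gene families, complexes and pathways are read against these shares. A pair of separate peaks was found at 12 genes. Among these were HOXB9 (325 and 178), LMO4, a LIM-only cofactor (214 and 122), UBTF, the upstream binding factor of RNA polymerase I (206 and 130), MEF2D, a MADS-box factor (145 and 110), AXIN2, a negative regulator of Wnt signalling (122 and 106), and SP3, a GC-box binding factor (105 and 103). In the other direction, 32 peaks had the starts of 2 or more protein-coding genes in reach, so that the gene could not be assigned.

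The listed genes of mitochondrial biogenesis, the respiratory chain and Parkinson disease, the context in which ZNF746 is best known, had no peak above 80. PPARGC1A, on chr4:23756664-23905712, had no deposited peak in the gene, and the nearest deposited peak to any of its 14 TSS was 8826092 bp away, near CPEB2, with a score of 60.8. None of 12 regulators of mitochondrial biogenesis (upper bound of the share 26.5%), 18 Parkinson disease genes (18.5%) or 88 respiratory chain and ATP synthase genes (4.11%) had one. Mitochondrial genes outside these lists did have peaks, such as SPG7, a mitochondrial protease (138), and SURF1, an assembly factor of cytochrome c oxidase that shares its start region with SURF2 (120), both named after their values were seen. At lists this short and a background of 1.21%, a count of 0 is within what the intervals allow. The ZNF746 gene itself (chr7:149169787-149194908) also had none, and the nearest deposited peak was 274040 bp away, near ZNF467 (64.9). None of its 7 DUF3669 paralogues had one (upper bound of the share 41.0%).

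As the study also asked which proteins associate with ZNF746, genes of translation were listed, among them those of eIF3, the initiation factor that brings the small ribosomal subunit to mRNA. None of 14 eIF3 genes (upper bound of the share 23.2%) and none of 42 other initiation factor genes (8.41%) had a peak above 80. The same held for 86 cytosolic (4.20%) and 78 mitochondrial (4.62%) ribosomal protein genes and for 37 aminoacyl-tRNA synthetases (9.49%). Each of these bounds lies above the 1.21% over all protein-coding genes. Of the 345 promoters in these lists and that of the respiratory chain, grouped after their counts were seen, 94.2% were CpG-rich. Any of the 10 words was held by 23.2% of them, beside 42.7% of all promoters and 46.5% of CpG-rich ones. Other lists without a peak above 80 ranged from 9.66% (olfactory receptors) to 57.1% (DUF3669 paralogues), so that a low share was not common to them. Of 12 genes for proteins associated with ZNF746 in the study, 1 had a peak, PRRC2B, an RNA-binding protein (92.5).

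Other cellular machinery gave counts from 0 to 4. No peak above 80 was found at 63 splicing factors (upper bound 5.69%), 48 proteasome subunits (7.40%) or 88 ubiquitin-conjugating enzymes and proteases (4.11%). The same held for 33 RNA polymerase subunits (10.6%), 48 nuclear transport genes (7.40%) and 83 histone genes (4.35%). It also held for 414 olfactory receptors (0.887%) and 55 keratins (6.49%). Of these bounds, only that of olfactory receptors lies below the 1.21% over all protein-coding genes. With all deposited peaks, 3 of the 88 ubiquitin genes and 1 of the 48 proteasome genes had one. Few promoters of olfactory receptors (0.966%) and keratins (9.09%) were CpG-rich. Mediator, which links transcription factors to RNA polymerase II, had 2 of 30, namely MED15 (210) and MED13L (114). Vesicle and GTPase trafficking had 4 of 213 (1.88%, 0.514 to 4.74), with DENND4B, DENND4C (170) and the sorting nexin SNX33 (167) the highest. Solute carriers had 2 of 337, SLC3A2, the heavy chain of amino acid transporters (153), and SLC29A2, a nucleoside transporter (137). Cyclins and their kinases had 1 of 52, CDK9, the kinase that releases paused polymerase (132). A list of zinc finger genes, drawn from those with ZNF, ZFP, ZKSCAN, ZSCAN or ZBTB symbols, had 1 of 598 (0.167%, up to 0.928%), ZNF652 (206). It does not hold every such gene. ZFP36L2 (152) and ZFP36L1 (131), both with a peak at a TSS, are not in it. Neither are zinc finger factors under other symbols, such as HIVEP2 and the SP and KLF factors below.

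Transcription factors of other families and chromatin regulators recurred among the genes with a peak. The lists in the next sentences were written after the peaks had been seen, and their counts describe the peaks without being evidence for the groups. Homeobox genes had 14 of 195 members with a peak above 80 (7.18%). After HOXB9 and PITX1, HOXC6 and HOXC9 shared 1 peak (169), and the most 5′ genes of their clusters, HOXA13 (156) and HOXD13 (153), followed, then ALX4 (138). Forkhead genes had 3 of 46, among them FOXF1 (183) and FOXC1 (93.7). The GC-box binding SP and KLF factors had 5 of 27, with SP1 (207), KLF10 (156), SP4 (154), SP3 (105) and KLF12 (93.4).

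The stress- and growth-responsive AP-1 and ATF genes had 5 of 27, JUND (155), ATF3 (129), FOSL2 (123), JDP2 (120) and the C/EBP-family member DDIT3 (111), the last at a start region also close to MBD6. SMAD and BMP signalling genes had 5 of 24. They were the inhibitory SMAD6 (136), the transducer SMAD3 (136), the protease BMP1 (135), the ligand BMP7 (89.1) and TGFB1 (82.8). P-type ATPases, pumps that move ions or lipids, had 5 of 36, with ATP2A2 followed by ATP13A3 (113), ATP2C1 (94.9), ATP2B1 (89.0) and ATP8B2 (84.3).

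Histone-modifying enzymes and readers had 19 of 138 (13.8%). Among enzymes, ASH1L, a histone methyltransferase, had 189, KDM6B, a demethylase of H3 lysine 27, had 187, and the paralogous acetyltransferases EP300 and CREBBP had 116 and 115. BRD2, a reader of acetylated histones, had 202. Polycomb-related members included RYBP (172), PCGF5 (97.8), BCOR (92.3) and JARID2 (91.3). Remodellers and DNA methyltransferases had 5 of 52, among them SMARCA2 (106), CHD4 and the de novo methyltransferase DNMT3A (91.8).

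**Figure D4:**
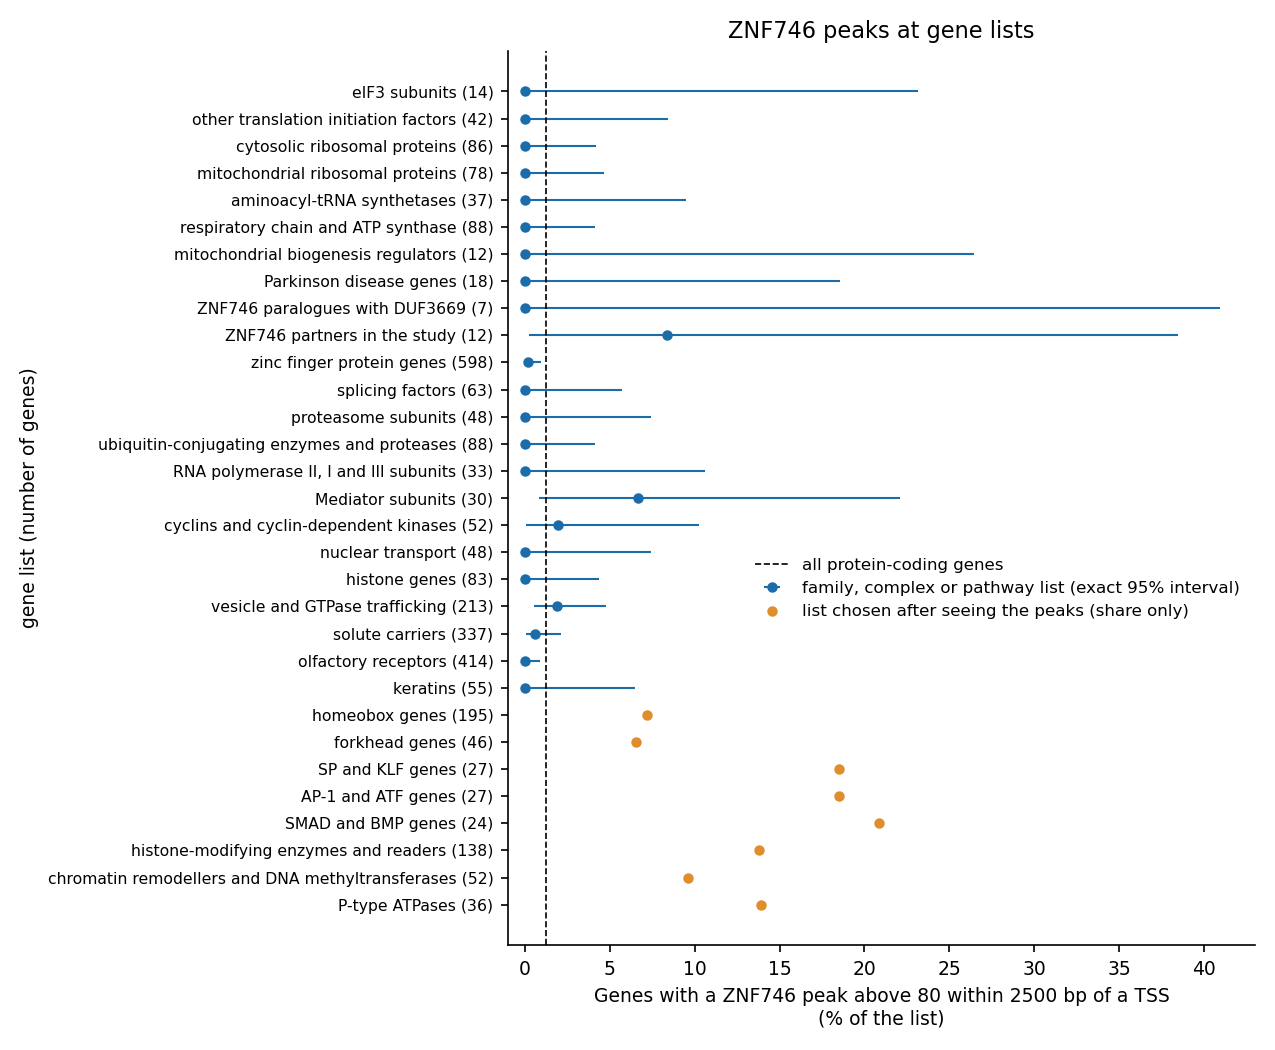
Share of each gene list with a ZNF746 peak above 80 within 2500 bp of a TSS, with the number of genes in parentheses; the dashed line is the 1.21% over all protein-coding genes. Blue points are families, complexes and pathways with exact 95% intervals, and orange points are lists chosen after the peaks were seen, shown without intervals. Of the 23 blue lists, 17 lie at 0, and their intervals include the 1.21%, except that of olfactory receptors (up to 0.887%).

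The 10 words were found by ranking all 8-base words, with both strands counted as 1, by how much more often they occurred in the 300-bp windows around the peak midpoints than in windows of the same length around the TSS of CpG-rich promoters. The first was GGGGAGGG, in 60.8% of peaks above 80 and 18.8% of CpG-rich promoters. GAGGGAGG followed (50.8% and 11.0%), then AGGGAGGG (48.5% and 9.23%), GGAGGGAG (50.0% and 11.8%) and GGGAGGGG (58.5% and 20.4%). The others were GGGAGGGA, GGGAGGGC, GGAGGGGG, GGAGGGGA and GAGGAGGG. They overlap one another by up to 7 bases and therefore describe 1 kind of sequence.

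Since the peaks above 80 chose the words, the peaks with scores of 50 to 80 are the measure that the choice did not use. In these, GGGGAGGG was found in 37.8% and GAGGGAGG in 31.5%, again above the CpG-rich promoters. Any of the 10 words was present in 248 of 260 peaks above 80 (95.4%, 92.1 to 97.6) and in 249 of 397 peaks of 50 to 80 (62.7%, 57.8 to 67.5), beside 46.5% of CpG-rich promoters. In the peaks above 80 the median number of matches per window was 7, in those of 50 to 80 it was 3, and in CpG-rich promoters 0. With 1 peak kept per gene the share was 232 of 242 (95.9%).

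The words were also found away from gene starts. Without a TSS in reach, 20 of 23 peaks above 80 held a word (87.0%, 66.4 to 97.2), near the 96.2% of TSS peaks. CpG-rich TSS peaks of other proteins held the words less often, in 560 of 1456 for ZNF251 (38.5%, 36.0 to 41.0), 16 of 54 for ZNF763 (29.6%, 18.0 to 43.6) and 21 of 44 for ZNF850 (47.7%, 32.5 to 63.3), against 206 of 213 for ZNF746 (96.7%, 93.3 to 98.7). These peaks were not used to choose the words, while those of ZNF746 were.

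**Figure D5:**
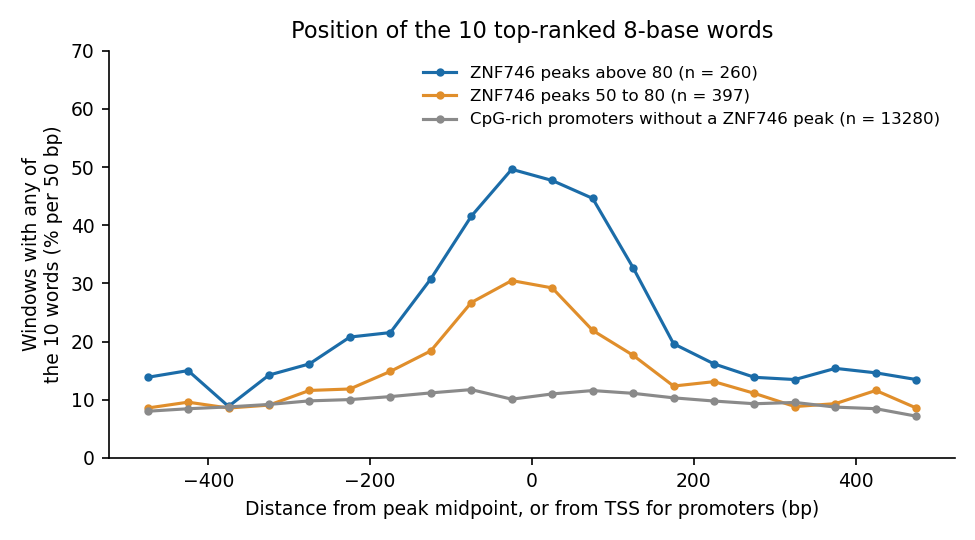
Share of windows with any of the 10 words in bins of 50 bp, by distance from the midpoint of ZNF746 peaks above 80 (blue) and of 50 to 80 (orange), and by distance from the TSS of CpG-rich promoters without a ZNF746 peak (grey). The blue line rises from 13.8% at the left edge to 49.6% just left of the midpoint and the orange line from 8.56% to 30.5%, while the grey line stays between 7.16% and 11.7%.

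The share with a word was higher in the peaks at every GC content compared. Within bins of GC content from 50% to 90%, the share with a word ran from 91.7% to 98.6% in peaks above 80, which chose the words. In the peaks of 50 to 80, which did not, the share ran from 62.2% to 100.0%. In promoters of genes without a deposited peak the share ran from 35.4% to 60.6%. At a GC content of 75% to 80%, for instance, it was 71 of 72 peaks above 80 (98.6%, 92.5 to 100.0), 55 of 63 peaks of 50 to 80 (87.3%, 76.5 to 94.4) and 55.7% of such promoters. Peak windows are centred on the midpoint and promoter windows on the TSS. With both centred on the TSS, 172 of 244 genes with a peak held a word (70.5%, 64.3 to 76.1), against 42.4% of the others. Read the other way, 2.00% of promoters with a word and 0.623% of those without had a peak. Split by GC content, these 2 shares were 0.688% and 0.503% at 50% to 60%, 1.91% and 0.952% at 65% to 70%, and 3.71% and 1.24% above 75%. Their intervals overlapped in each bin up to 70% and did not above it. All of these comparisons centred on the TSS use genes of the peaks above 80, which chose the words, and are descriptions only.

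The G-rich strand of the words was described relative to the gene, with no test. Among the 224 peaks at a protein-coding TSS, matches were more numerous on the antisense strand in 118 and on the sense strand in 92, with 1070 and 756 matches. In CpG-rich promoters the order was the reverse and closer, with 2887 windows mostly antisense and 3243 mostly sense. The overlap of adjacent matches makes counts of matches larger than counts of sites.

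A word was missing from 12 of the 260 windows. These included the starts of UBTF (130), PPM1D, a phosphatase of the DNA damage response (128), AXIN2 (106), FBXO11 (90.4) and ATP2B1, and the shared start of ASH1L and MSTO1. At UBTF and AXIN2 this was 1 of 2 peaks, and the second peak held 7 and 8 matches. The highest of the 12 was a broad peak of 4706 bp with a GC content of 21.0%, described among the shared peaks.

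Known promoter elements were searched in the same 300-bp windows on both strands. Peak windows were centred on the midpoint and promoter windows on the TSS. The part of this difference in the shares below was not tested. None of the letter strings lies inside another, but the GC box can share bases with the words. The GC box GGGCGG, bound by SP and KLF factors, was in 235 of 260 peaks (90.4%, 86.1 to 93.7) and in 80.2% of CpG-rich promoters. Other elements common at CpG-rich promoters were less frequent in the peaks. The ETS element CCGGAAG was in 10 of 260 (3.85%, 1.86 to 6.96) against 17.9%, and CCAAT, read by NF-Y, in 35 (13.5%, 9.56 to 18.2) against 30.6%. YY1's AAGATGGCG was in 0 (up to 1.41%) against 4.23%, the NRF1 element GCGCATGCG in 1 against 3.43%, and the CRE TGACGTCA in 1 against 3.11%.

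The AP-1 element TGANTCA was in 17 peaks (6.54%, 3.85 to 10.3), against 2.33% of CpG-rich and 4.64% of all promoters, and the E-box CACGTG in 12 (4.62%, 2.41 to 7.92) against 9.10% of CpG-rich ones. The TATA box TATAAA was in 7 (2.69%, 1.09 to 5.47) against 3.30% of CpG-rich and 8.17% of all promoters. TATTTT, the core of the insulin response sequence through which ZNF746 is described to act at PPARGC1A, was in 13 (5.00%, 2.69 to 8.40), beside 3.11% of CpG-rich and 8.41% of all promoters. In the peaks of 50 to 80 it was in 25.2%. A string of 6 bases occurs often by composition, and these counts describe letters in a window, not sites in use.

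The lower-scoring peaks were of mixed kind. From 50 to 60, 56.2% of peaks had a TSS, 41.9% were CpG-rich and 51.9% held a word. From 60 to 70 these shares were 87.9%, 79.1% and 82.4%, and from 100 to 150 they were 95.1%, 86.3% and 95.1%. The step thus lay near 60, below the score of 80, and the peaks of 60 to 80 resembled those above 80 more than those below 60.

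Of the 23 peaks away from a TSS, the highest lay in an intron of the region nearest to DLG2 (281), then 11551 bp upstream of SP8, a GC-box binding factor (274), and 17931 bp from the nearest TSS, a noncoding one, with SMAD6 as the nearest protein-coding gene at 130675 bp (264). BCOR had a peak 7275 bp upstream (165) besides the one at its start, and ZBTB7B one 2973 bp downstream of its TSS (157), just outside the window. The AHDC1 peak (160) lay 4103 bp downstream of the TSS and held 22 matches at an observed over expected CpG ratio of 0.13. SP8 and BCOR were in CpG-rich sequence, AHDC1 and ZBTB7B were not.

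Few peaks were shared with other proteins. At least 1 bp of 24 of the 260 peaks (9.23%, 6.00 to 13.4) overlapped a peak above 80 of another library, and 21 of these overlapped one of ZNF251, whose list of 20974 is the longest. From the side of ZNF251 this was 20 peaks, 0.0954% of its list. Of the libraries called against the same input, ZNF20 shared 1 of its 91 peaks above 80. ZNF213 has 0 peaks above 80 and ZNF256 has 3, so that their overlap at this threshold says nothing, and among all deposited peaks 1 ZNF746 peak overlapped ZNF256 and 0 of 657 overlapped ZNF213. By gene, 68 of the 244 genes with a ZNF746 peak also had a ZNF251 peak within 2500 bp (27.9%, 22.3 to 33.9), beside 16.1% of all protein-coding genes. Within CpG-rich promoters the shares were 29.1% (23.3 to 35.6) and 19.9%. With TSS windows of 500 bp they were 18.9% and 9.89% over all genes. A gene counts as shared also where the peaks lie at different TSS of it, and distances between the peaks of both proteins were not measured.

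The peak shared with the most libraries, 3, lay in an intron of the region nearest to MYO1D (109), in CpG-rich sequence away from a TSS. Peaks shared with 2 were one at a noncoding start near PRUNE2 (124) and the broad peak without a word. The latter, at chr8:43092625-43097330, near the centromere, had a score of 244 and was the single peak above 80 that coincided with any peak in the control's list. A second deposited ZNF746 peak that did so, on chr14:19081639-19081869 with a score of 52.5, was also AT-rich (GC content 31.8%) and without a word. Leaving the broad peak out moved the TSS share to 237 of 259 (91.5%).

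Peaks were found on every chromosome but Y, in unequal shares of genes. Chromosomes 6 and 17 had a peak at 2.10% of their protein-coding genes each (22 of 1048, 1.32 to 3.16, and 25 of 1189, 1.37 to 3.09), and chromosome 1 at 1.72% (36 of 2092). Chromosome 19 had 10 of 1480 (0.676%, 0.324 to 1.24), chromosome 11 had 8 of 1317 (0.607%), and chromosome 20 had 1 of 547 (0.183%, up to 1.01%). HEK293T cells carry an altered number of copies of many chromosomes, which was not measured here, and its part in these shares was not tested.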

How the data were processed

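Peaks of HA-tagged KZFPs in HEK293T cells were analysed from deposited lists, 1 library per protein. The authors mapped reads to hg19 with Bowtie2 and called peaks per library with MACS. ChIP-seq reads were kept above a mapping quality of 10 and called at default settings against total input. ChIP-exo was called with all duplicates kept against a control set as in an earlier study. The submitters' notes give Bowtie2 2.2.1 and MACS 1.4. The deposited value is the MACS score, which depends on depth and was used only within a list. Per the methods, ChIP-seq libraries had at least about 27000000 reads of 85 bp and ChIP-exo libraries 15000000 of 100 bp; the lists hold no read number per library.

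Members and gene lists were chosen with earlier results of these data known, and 8 lists and the 10 words after the peaks were seen. Named peaks followed a rule: the 25 highest, the 10 highest away from a TSS, 3 on each side of the threshold, those overlapping a control peak, the 5 most shared, list members (all for lists of up to 30 genes, otherwise the 3 highest), PPARGC1A and ZNF746; other genes were named after their values were seen, and a few genes are not reported here. Positions are 1-based. TSS came from GENCODE release 44 mapped to hg19 (254376 transcripts), and the promoter of a gene was its canonical TSS. Python 3.11.15, pysam and scipy 1.17.1 were used, and the measures were tested on simulated positions. Intervals are exact (Clopper-Pearson, 95%) and cover counting error only. Alternatives were other thresholds, windows, transcript sets and CpG limits.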

Additional observations from a re-analysis of the deposited data

How the results depend on the processing

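With 1 library per protein no replicate could be left out. No paired analysis was possible because each group had a single library. Of 62 alternative values, 42 stayed within the interval of the value reported, or within 1.5 times for counts, and 20 moved. Other thresholds accounted for 10 of these. All 657 deposited peaks gave 76.1% at a TSS, 50.1% within 250 bp of one, 90.8% of TSS peaks with a protein-coding TSS, 30.4% at divergent promoters, 67.3% in CpG-rich sequence and 460 genes. A score above 150 left 76 peaks and 80 genes, with 44.1% at divergent promoters. A TSS window of 500 bp gave 84.6% at a TSS, 26.4% divergent and 18.9% of genes shared with ZNF251, and one of 1000 bp gave 30.2% divergent and 21.0% shared. The ZNF251 share was 22.0% without peaks that overlap another library, beside 16.1% of all genes. That filter takes out the peaks that overlap ZNF251 itself, so that a fall was built into it. With all deposited ZNF251 peaks the share was 37.7%, beside 22.5% of all genes. With protein-coding transcripts only, 83.5% of peaks were at a TSS and 53.5% within 250 bp. CpG limits of 0.75 and 55% GC gave 64.2%. Apart from that filter, the cause of these shifts was not tested. The annotation release and the midpoint in place of a summit limit distances, and the use of 1 canonical TSS per gene limits the promoter windows. The absence of a replicate limits every comparison.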
